A study of Mus musculus with 6 samples.

Results

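The cells described here are 202 macrophages that carried Gpnmb, taken from 22157 single CD11b+ cells of mouse brain. CD11b is an integrin subunit on myeloid cells. The study measured RNA and surface proteins of the same cells by CITE-seq, in which antibodies with DNA barcodes are read beside the transcripts. The mice were C57BL/6 and aged 12 weeks, and the groups were females and males without tumor, 14 days after tumor implantation and 21 days after it. Animals were perfused with cold PBS, and tumor-bearing hemispheres, or whole brains of controls, were dissociated with enzymes. Each of 3 pools held 1 sample of each of the 6 groups, marked by hashtag antibodies 1 to 6. The labels do not say which hashtag marked which group, so a hashed sample is given here as its pool and its hashtag, and no contrast of sex, tumor or day was made. Whether a number shared by pools marks a shared group is not given, and it is not assumed here. The labels do not say whether samples of a group came from separate animals. The p-values thus concern how differences between sets of cells varied over hashed samples, a spread that may be technical.

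A cell was kept with at least 500 RNA UMIs (unique molecular identifiers, each standing for 1 captured transcript), under 10% mitochondrial UMIs and at least 80% of its hashtag UMIs on 1 hashtag. A member had at least 3 UMIs of Gpnmb and at least 1 of Ms4a7. It also had at most 1 UMI over the microglia genes P2ry12, Tmem119, Siglech and Gpr34, at most 1 over Nos2 and Inhba, at most 2 over the monocyte genes Ly6c2 and Plac8, and 0 of Cd163 and Lyve1, genes of macrophages at the brain's borders. The comparator was every other cell of the same hashed sample with Ms4a7 and 0 UMIs of Gpnmb, 4644 cells in all. Of these, 676 also passed the 4 exclusions and are called matched cells here, since by rule they differed from the members in Gpnmb alone. The matched cells are a subset of the comparator and both comparisons use the same members, so they are not independent of each other. The members were chosen by their measured UMIs of these 12 genes, so levels of these genes are given as description, with no test.

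Gpnmb encodes a type I transmembrane glycoprotein of melanosomes, late endosomes and lysosomes, and its transcription is driven by the MiT-TFE factors (MITF, TFEB, TFE3 and TFEC). These factors also drive lysosomal genes through the CLEAR element, whose core is the E-box CACGTG. Macrophages that carry Gpnmb together with the lipid chaperone FABP5, apolipoprotein E and the receptor TREM2 occur in tissues that load macrophages with lipid, such as adipose tissue, atherosclerotic plaques and demyelinated brain. In brain tumors such cells are usually counted among macrophages derived from blood monocytes.

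The promoters below are of Gpnmb and of 5 genes that rose in the members, picked because they hold the E-box that these factors bind. Most genes that rose do not hold it, Ctsk, Cd63, Cd68, Psap, Acp5 and Apoe among them. They are RefSeq sequences of GRCm38.p6, from 250 bases before to 50 bases after the annotated start, 5′ to 3′ on the gene's strand and in lower case. Capitals mark TCACGTG or its reverse complement CACGTGA, searched on both strands, with overlapping matches merged.
Ctsd (cathepsin D, a lysosomal protease), chr7:142387778-142388077, minus strand: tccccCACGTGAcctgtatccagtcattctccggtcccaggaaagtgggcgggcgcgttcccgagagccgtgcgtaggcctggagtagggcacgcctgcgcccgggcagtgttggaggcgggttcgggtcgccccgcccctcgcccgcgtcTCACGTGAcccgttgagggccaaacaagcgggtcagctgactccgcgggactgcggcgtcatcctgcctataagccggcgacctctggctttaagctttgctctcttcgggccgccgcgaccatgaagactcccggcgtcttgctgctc
Lamp1 (a lysosomal membrane glycoprotein), chr8:13158911-13159210, plus strand: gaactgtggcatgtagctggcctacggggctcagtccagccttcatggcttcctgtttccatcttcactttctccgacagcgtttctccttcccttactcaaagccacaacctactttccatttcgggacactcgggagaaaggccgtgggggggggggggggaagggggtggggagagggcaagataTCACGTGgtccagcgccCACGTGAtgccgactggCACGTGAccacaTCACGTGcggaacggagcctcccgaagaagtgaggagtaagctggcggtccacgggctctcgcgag
Atp6v1a (the catalytic subunit of the vacuolar proton pump), chr16:44139210-44139509, minus strand: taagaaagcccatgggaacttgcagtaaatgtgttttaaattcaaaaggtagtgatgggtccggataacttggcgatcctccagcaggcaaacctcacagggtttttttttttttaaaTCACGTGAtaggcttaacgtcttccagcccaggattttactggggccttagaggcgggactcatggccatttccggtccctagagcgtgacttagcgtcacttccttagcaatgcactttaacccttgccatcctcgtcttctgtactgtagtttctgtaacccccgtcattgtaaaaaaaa
Rragc (a GTPase that holds MiT-TFE factors at the lysosome), chr4:123917183-123917482, plus strand: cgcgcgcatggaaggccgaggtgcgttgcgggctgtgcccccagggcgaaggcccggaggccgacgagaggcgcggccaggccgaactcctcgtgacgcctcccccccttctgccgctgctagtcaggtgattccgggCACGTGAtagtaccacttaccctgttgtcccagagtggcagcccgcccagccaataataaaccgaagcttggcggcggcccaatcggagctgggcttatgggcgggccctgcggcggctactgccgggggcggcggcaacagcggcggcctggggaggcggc
Plin2 (the coat protein of lipid droplets), chr4:86670010-86670309, minus strand: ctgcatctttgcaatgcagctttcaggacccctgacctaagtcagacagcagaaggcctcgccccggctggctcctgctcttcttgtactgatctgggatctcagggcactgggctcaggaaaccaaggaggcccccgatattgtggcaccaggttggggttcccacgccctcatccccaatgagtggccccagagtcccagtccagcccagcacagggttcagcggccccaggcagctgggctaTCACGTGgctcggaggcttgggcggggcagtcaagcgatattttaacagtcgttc
Gpnmb, chr6:49036268-49036567, plus strand: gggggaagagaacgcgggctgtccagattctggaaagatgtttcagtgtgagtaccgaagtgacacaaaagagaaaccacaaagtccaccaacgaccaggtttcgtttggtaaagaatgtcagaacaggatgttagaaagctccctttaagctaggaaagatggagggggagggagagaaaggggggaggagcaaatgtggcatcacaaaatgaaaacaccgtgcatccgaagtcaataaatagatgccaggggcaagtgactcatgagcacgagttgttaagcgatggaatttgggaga
The 7-base motif started 245 and 98 bases before the start of Ctsd, at 4 places in Lamp1, and at 1 place each in Atp6v1a, Rragc and Plin2. It is not in the window of Gpnmb. The members' levels of these genes follow with their groups.

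Members made up 0.121% of a hashed sample's cells in the median of 18, and 3.41% in the highest. They were found in 10 of the 18. Pool 2 hashtag 6 held 62 members of 1819 cells (3.41%, exact Clopper-Pearson 95% interval 2.62 to 4.35), pool 2 hashtag 4 held 51 of 2072 (2.46%, 1.84 to 3.22) and pool 1 hashtag 6 held 35 of 1916 (1.83%, 1.28 to 2.53). These 3 held most of the cells and are the only ones with at least 20 members. Pool 1 hashtag 4 gave 17 members (0.769%), pool 2 hashtag 5 gave 14 (0.833%), pool 3 hashtag 6 gave 8 of 507 cells (1.58%, 0.684 to 3.09) and pool 2 hashtag 3 gave 6 (0.366%). Pool 1 hashtag 5 (0.197%) and pool 3 hashtag 5 (1.13%) gave 4 each, and pool 1 hashtag 3 gave 1. The 8 others gave 0, which allows shares of up to 0.155% to 2.68% by the limit of 3 counts. Intervals and limits cover counting error only. Hashtags 1 and 2 gave no cell with 3 UMIs of Gpnmb and 1 of Ms4a7 in any pool.

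The shares depended on the condition on Ly6c2 and Plac8. In all, 1506 cells carried at least 3 UMIs of Gpnmb and 1 of Ms4a7, and 13.4% of them were members. More than 2 UMIs of Ly6c2 and Plac8 removed 1134 of them (75.3%), and for 597 this was the sole reason. The microglia genes removed 423 (28.1%), Nos2 and Inhba 350 (23.2%) and Cd163 and Lyve1 5. Without the condition on Ly6c2 and Plac8 there were 799 cells, and the median share was 2.18%. Pool 1 hashtag 5 then rose from 0.197% to 6.58%, pool 2 hashtag 3 from 0.366% to 6.46% and pool 3 hashtag 4 from 0 to 6.07%. Pool 2 hashtag 6 was highest under both rules (10.1% without the condition), and the order of the others changed. Among the 1506 cells, the summed Ly6c2 level was 2547 CPM (UMIs of the gene scaled to a common total of UMIs) in pool 1 hashtag 5 and 3466 in pool 2 hashtag 3, against 327 in pool 1 hashtag 6 and 501 in pool 2 hashtag 6. In microglia, Ly6c2 and Plac8 were at 256 and 720 CPM in pool 1 hashtag 5 and at 78.7 and 336 in pool 1 hashtag 6. They were at 13.6 and 27.1 in hashtag 1 and at 11.9 and 25.2 in hashtag 2 of the same pool. The microglia levels thus differed between hashtags of 1 pool, and how much of them is free RNA was not tested. Of the 1506 cells, pool 1 hashtag 5 held 203, and the limit of 2 UMIs removed 194 of them. Pool 1 hashtag 6 held 102, and the limit removed 46. The part of free RNA in the shares was not tested. Cells with at least 3000 UMIs were also thinned to that depth before the rule. The 3012 shallower cells, 2289 of them in pool 1, were left out of these shares. The median share was then 0.526%, with 6.18% in pool 2 hashtag 6 and 1.27% in pool 1 hashtag 6.

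**Figure D1:**
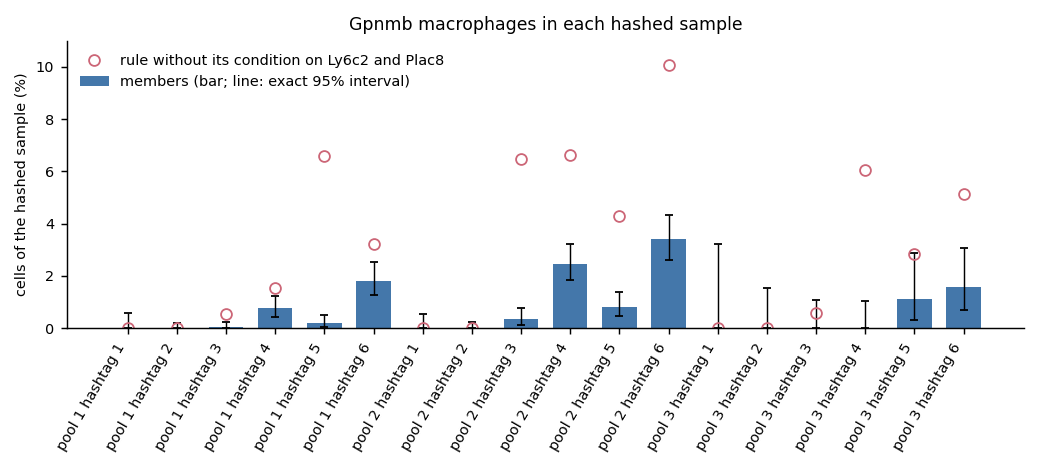
Share of each hashed sample's cells (percent, vertical axis) that met the rule (bars, with exact 95% intervals) and that met it without its condition on Ly6c2 and Plac8 (open circles), for all 18 hashed samples. Pool 2 hashtag 6 has the highest bar (3.41%), and several hashed samples with low bars have high circles, such as pool 1 hashtag 5 (0.197% and 6.58%).

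The pools gave 13925, 11010 and 11820 barcodes with 74848339, 107880924 and 71510276 RNA UMIs. A clear hashtag was found for 10908 of the 13766 cells of pool 1 that passed the UMI and mitochondrial filters. It was found for 9353 of 10688 such cells of the second pool but for only 1896 of 11760 of the third, which added 12 members. Members had a median of 11832 UMIs per cell and matched cells 9029. Within hashed samples the medians for members and matched cells were 9713 and 8690 (pool 1 hashtag 6), 12849 and 12944 (pool 2 hashtag 4) and 13400 and 14385.5 (pool 2 hashtag 6). Hashed samples with fewer members were less even: the medians were 21216 and 10288 in pool 2 hashtag 5 and 14820 and 7956 in pool 2 hashtag 3, which enter results with at least 4 cells per arm. Pools 1 and 2, 1 and 3, and 2 and 3 shared 32, 50 and 53 cell barcodes. A Scrublet doublet score above 0.2 was found in 0 members, 0.740% of matched cells and 7.54% of the comparator. The file header of pool 1 names another software version than those of pools 2 and 3, and its gene list is shorter, so levels are compared within pools.

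The defining markers were present in the members, and those outside the rule were Fabp5, Apoe and Acp5. FABP5 is a fatty acid chaperone, APOE the lipoprotein that carries lipid out of macrophages, and ACP5 the tartrate-resistant acid phosphatase of osteoclasts and activated macrophages. Fabp5 was detected in 93.6% of members (matched cells 58.1%), Apoe in 99.5% and Acp5 in 88.6% (67.0%). All classes below were set by UMI thresholds, given as description. Over hashed samples, median Fabp5 levels in 5 of these classes were, in order, 3980 CPM in members (2586 to 4162, 3 hashed samples), 2075 in Ms4a7 cells with at least 3 UMIs of Nos2 and Inhba (1099 to 4215, 9), 632 in matched cells (178 to 1600, 8), 266 in Ly6c2 and Plac8 monocytes (104 to 484, 12) and 59.8 in microglia (11.7 to 138, 18). Members and Nos2 or Inhba cells overlapped in range, while matched cells lay below every member arm. Apoe was also high in border macrophages, at 42001 CPM over 66 cells, where Fabp5 was at 74.5 and Acp5 at 72.3. Border macrophages thus had more Apoe than the members (25634 over all 202) and less Fabp5 and Acp5. Itgam, which encodes CD11b, was found in 76.2% of members.

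Gpnmb itself was not restricted to the members. It stood at 1197 CPM in the members and at 483 in the Nos2 or Inhba cells, of which 32.3% had at least 3 UMIs. Of 721 cells with NK genes, 0.555% had 3 Gpnmb UMIs or more, at a median of 3088 UMIs per cell. In microglia this share was 0.264% of 10619 cells, at a median of 4855 UMIs. Members were deeper, at a median of 11832. Whether Gpnmb UMIs in NK cells and microglia came from free RNA or from doublets was not tested. Gpnmb in the members was 774 CPM in pool 1 hashtag 6, 1410 in pool 2 hashtag 4 and 1226 in pool 2 hashtag 6. Ly6c2, which the rule limits in both, stood at 54.0 to 72.3 CPM in member arms and 38.5 to 45.4 in matched arms.

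Against matched cells, the members carried more RNA of lysosomes and of lipid handling, and less of antigen presentation by MHC class II. Counts were summed for each hashed sample and arm in the 3 hashed samples with at least 20 cells per arm (148, 132 and 108 matched cells, and 606, 673 and 540 comparator cells), and tested by edgeR's quasi-likelihood test with the hashed sample as block. A gene passed at a Benjamini-Hochberg adjusted p under 0.05 over all genes tested, and "in both" means that it passed against matched cells and against the whole comparator with 1 sign. Against matched cells 183 of 6967 genes were higher (2.63%) and 140 lower (2.01%), and against the whole comparator 280 of 9168 were higher (3.05%) and 383 lower (4.18%). In both, 162 genes were higher (2.33%) and 119 lower (1.71%). The median log2 fold change over all genes was -0.0076 against matched cells and -0.0016 against the whole comparator. With at least 4 cells per arm, an alternative added after seeing the data that uses 9 hashed samples of all 3 pools (the 3 above among them), 125 of the 162 genes could be tested against matched cells, all 125 were higher and 112 passed. Of the 119 lower genes 93 could be tested, all were lower and 78 passed.

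Fabp5 had the largest change among the lipid genes. Its level was 3980 CPM in the members of pool 1 hashtag 6 against 654 in matched cells, 4162 against 474 in pool 2 hashtag 4, and 2586 against 645 in pool 2 hashtag 6. The member arms did not overlap the matched arms, and the fold was 6.11 (log2 2.61 ± 0.13 SE, edgeR adjusted p = 1.29e-11). It was higher in 9 of 9 hashed samples with at least 4 cells per arm. Of the lipid uptake and binding list, 3 of 7 genes tested were higher in both, 0 lower, with a median of 0.52. The other two were Trem2, a receptor for lipids and lipoproteins (735, 764 and 758 CPM against 532, 543 and 536, fold change 0.52 ± 0.09 log2, edgeR adjusted p = 8.40e-04), and Lrp1, a scavenger and lipoprotein receptor (0.57 ± 0.13). Lrp1 did not pass in either comparison without pool 2 hashtag 6 (0.41 against matched cells, edgeR adjusted p = 0.132). Cd36, the fatty acid translocase, had UMIs in 2.48% of members and Lpl, lipoprotein lipase, in 8.42%, so few members had either.

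Lipid storage and hydrolysis genes rose in 4 of 11 tested (0 fell, median 0.28). Lipa, the lysosomal acid lipase that frees cholesterol and fatty acids, stood at 141, 180 and 175 CPM against 68.8, 99.1 and 85.0, a fold of 2.003 (edgeR adjusted p = 3.65e-05), with no overlap. Nceh1, a neutral cholesterol ester hydrolase, was at 84.0, 73.0 and 68.8 against 32.4, 39.2 and 45.0. Plin2 stood at 234, 401 and 374 against 232, 229 and 264, so that its arms differed in pool 2 and hardly in pool 1 (log2 0.51 ± 0.13, edgeR adjusted p = 0.0205). Plin2 did not pass without pool 2 hashtag 4 (0.33, edgeR adjusted p = 0.335), nor against the whole comparator without pool 2 hashtag 4 (0.35, 0.0550) or 6 (0.43, 0.312), but was higher in 9 of 9 hashed samples with at least 4 cells. Hilpda, an inhibitor of the lipase ATGL at lipid droplets, passed in both, but not against matched cells without pool 2 hashtag 4 (0.63, edgeR adjusted p = 0.0735) or without pool 2 hashtag 6 (0.74, 0.0520, and 0.53, 0.227, against the whole comparator).

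Efflux and lipoprotein genes rose in 4 of 11 tested and fell in 1 (median 0.37). Apoe was at 23392, 25760 and 29070 CPM in the member arms and at 16824, 16021 and 18552 in matched cells, a fold of 1.55 without overlap (log2 0.63 ± 0.05, edgeR adjusted p = 1.02e-08), and it was higher in 8 of 9 hashed samples. Apoc2, an activator of lipoprotein lipase, had a fold of 2.24 (edgeR adjusted p = 1.23e-06), with levels of 3.00 CPM in pool 1 and of 909 and 562 in pool 2. That gap between pools was also present in matched cells (1.62 against 421 and 254). Pltp, the phospholipid transfer protein, and Npc1, which exports cholesterol from lysosomes, also passed in both, and Npc1 did not without pool 2 hashtag 4 (0.64, edgeR adjusted p = 0.114). Ch25h, which makes 25-hydroxycholesterol, fell: 3.00, 10.4 and 8.16 against 18.6, 47.5 and 48.6, or 5.11-fold lower. The cholesterol synthesis list had 0 of 11 genes past the threshold in either direction (median -0.04).

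The lysosomal list, the largest of those tested, had the most genes that changed. Of 32 lysosomal enzymes and membrane proteins tested, 18 were higher in both and 1 lower, with a median of 0.45 against -0.0076 over all genes. Ctsd was at 1691, 2336 and 2863 CPM in members and at 775, 873 and 932 in matched cells, a fold of 2.69 (log2 1.43 ± 0.09, edgeR adjusted p = 4.36e-10). Ctsb, a cysteine cathepsin, was at 3926, 4769 and 4225 against 1609, 2157 and 2098, a fold of 2.26 (edgeR adjusted p = 1.61e-10). Cd63, a tetraspanin of late endosomes, was at 1502, 942 and 1309 against 525, 333 and 632, a fold of 2.60 (edgeR adjusted p = 3.27e-09). None of these arms overlapped, and each gene was higher in 9 of 9 hashed samples. Psap, the precursor of the sphingolipid activator saposins, had a fold of 1.96, and Lamp1 of 1.63 (1254, 1202 and 1159 against 759, 698 and 814). Cd68, a lysosomal glycoprotein of macrophages, was at 720, 1042 and 750 against 369, 487 and 482. Among the rest that rose were Ctsa, Ctss, Ctsz, Lgmn, Gla, Hexa, Grn, Tpp1, Cstb, Ctsk and Acp5, and Ctsc was the gene that fell. Microglia had more Ctsd than the members, with a median of 5665 CPM (2741 to 7518, 18 hashed samples) against 2336, so a high Ctsd level was not particular to the members.

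**Figure D2:**
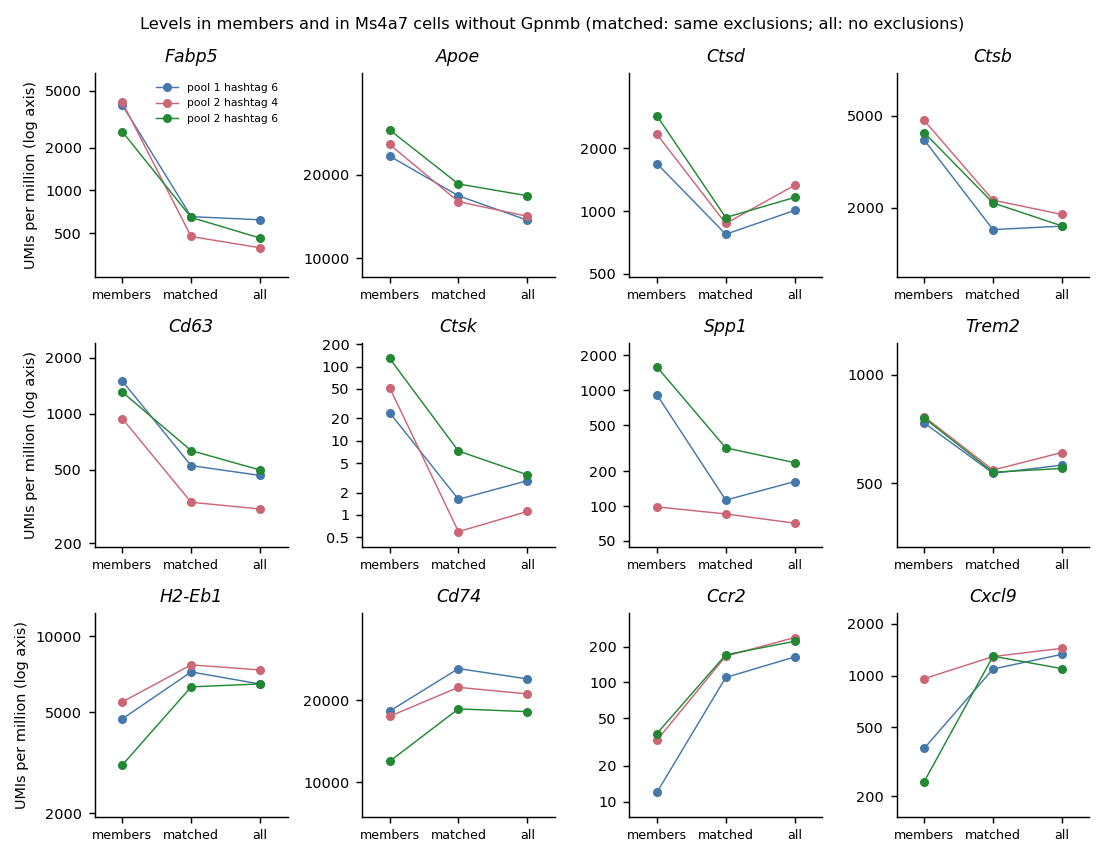
Summed levels (CPM, log axis) of 12 genes in members, matched cells and all Ms4a7 cells without Gpnmb, with 1 line for each of the 3 hashed samples tested. Fabp5, Apoe, Ctsd, Ctsb, Cd63, Ctsk and Trem2 are higher in every member arm, Cd74, H2-Eb1, Ccr2 and Cxcl9 lower, and Spp1 barely differs in pool 2 hashtag 4 (98.3 against 85.4).

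The proton pump that acidifies lysosomes and the MiT-TFE factors gave fewer calls, several of which rested on single hashed samples. Of 16 vacuolar pump subunits tested, 4 were higher in both and 0 lower (median 0.32). Atp6v1a was at 99.0, 139 and 188 CPM against 64.0, 75.4 and 102 (log2 0.86 ± 0.14, edgeR adjusted p = 3.93e-04), and Atp6v1c1 was at 111, 148 and 108 against 58.3, 71.8 and 69.7. Atp6v0c and Atp6v1g1 lost their call against matched cells without pool 2 hashtag 4 (0.32, edgeR adjusted p = 0.348, and 0.37, 0.137), the latter also without pool 1 (0.39, 0.0691). Atp6v0c stood at 12.0 CPM in pool 1 and at 2019 and 1947 in pool 2. Of 12 MiT-TFE factors and partners, 3 were higher in both and 0 lower (median 0.57). Tfeb was at 24.0, 31.3 and 33.8 against 19.4, 11.3 and 15.2, and Mitf at 27.0, 35.8 and 38.5 against 25.1, 27.9 and 31.9. The call of Tfeb (log2 1.08 ± 0.29, edgeR adjusted p = 0.0295) was lost without pool 2 hashtag 4 (0.87, 0.209) and without pool 2 hashtag 6 (1.01, 0.194), and that of Mitf was not reached (0.30, 0.64). Over the 9 hashed samples with at least 4 cells per arm, Tfeb was higher in 4 and lower in 5, and Rragc higher in 5. Fnip2, a partner of folliculin, was higher in both, and Rragc (54.0, 74.5 and 108 against 33.2, 45.7 and 64.6) did not pass in either comparison without pool 2 hashtag 6 (0.73 against matched cells, edgeR adjusted p = 0.0964).

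The E-box shown in the promoters above was counted over all genes with a RefSeq promoter. TCACGTG, on either strand, was in 25 of the 134 matched genes that were higher in both (18.7%), in 474 of 5656 matched genes tested (8.38%), in 3 of 91 that were lower in both (3.30%) and in 4.29% of all 27025 genes. The 6-base core CACGTG, which every TCACGTG holds, was in 20.9%, 13.2%, 7.69% and 8.09% of them. Of 15 matched lysosomal genes that were higher, 5 held TCACGTG, and so did 7 of the 25 matched genes of the whole lysosomal list. The motif was thus frequent in that list as a whole, and its count does not set apart the genes that rose. Of 8 matched genes of the MHC class II list 0 held it, too few genes to tell this share from 8.38%. These are counts of letters in these windows, with no test, and they do not show that a factor was bound.

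Osteoclast and matrix-degrading genes rose in 4 of 12 tested and fell in 1 (median 0.22). Ctsk, the collagen-degrading cathepsin K, had the largest rise of all named genes: 24.0, 52.1 and 129 CPM against 1.62, 0.593 and 7.26, a fold of 22.6 (log2 4.50 ± 0.33, edgeR adjusted p = 5.25e-09), and 5.15 on the log2 scale without pool 2 hashtag 6. It was higher in 9 of 9 hashed samples but detected in 24.3% of members, against 1.48% of matched cells, and Nos2 or Inhba cells had a median of 55.6 (15.0 to 185, 9 hashed samples), a range that holds all 3 member arms. Spp1, the secreted matrix protein osteopontin, was at 915, 98.3 and 1593 against 113, 85.4 and 318, a fold of 4.20 (log2 2.07 ± 0.27, and 2.67 with at least 4 cells per arm). Its arms overlapped, and pool 2 hashtag 4 was low in both. Acp5 was at 642, 343 and 602 against 358, 301 and 412 (log2 0.55 ± 0.11, edgeR adjusted p = 0.00422). The member and matched arms of Acp5 overlapped, and its call was lost without pool 1 (0.42, edgeR adjusted p = 0.0575). Timp2, an inhibitor of matrix metalloproteinases, was at 381, 215 and 318 against 139, 135 and 147. Ocstamp, which serves osteoclast fusion, fell, at 3.00, 13.4 and 8.16 against 23.5, 33.8 and 31.2, and did not pass against the whole comparator without pool 2 hashtag 6 (-1.25, edgeR adjusted p = 0.150).

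The other large rises were in genes of few UMIs. Gdf15, a stress-induced cytokine, was at 15.0, 61.1 and 23.3 CPM against 2.43, 4.15 and 2.90 (fold 10.7, edgeR adjusted p = 2.95e-06), and was detected in 16.8% of members. Cd24a, a sialoglycoprotein and ligand of Siglec receptors, was at 17.99, 59.6 and 24.5 against 2.43, 0.593 and 4.36, a fold of 14.7 that became 2.61 on the log2 scale without pool 2 hashtag 4 and 4.83 without pool 2 hashtag 6 (3.87 ± 0.48 with all 3). Cd22, a lectin best known from B cells, was at 17.99, 14.9 and 31.5 against 2.43, 0.593 and 6.53 (log2 2.78, and 3.50 without pool 2 hashtag 6), while the B cell genes Cd79a and Ms4a1 were at 0 in the member arms. Emp1, a membrane protein, Gm38335, Nav2, the neutrophil calprotectin subunit S100a8 and the protease inhibitor Slpi complete the 10 largest rises, between 2.12 and 2.85 on the log2 scale. Against the whole comparator, Slpi did not pass without pool 1 (0.44, edgeR adjusted p = 0.476) or without pool 2 hashtag 6 (0.81, 0.0937), S100a8 without pool 2 hashtag 4 (0.70, 0.0649) and Nav2 without pool 2 hashtag 4 (0.74, 0.226) or 6 (0.97, 0.130). The summed neutrophil markers were 66.0, 101 and 92.1 CPM in members against 41.3, 59.9 and 53.7 in matched cells, with S100a8 among them and Cxcr2 and Ltf at 0, and the part of neutrophil RNA in the rise of S100a8 was not tested. With no condition on Ly6c2 and Plac8 in either arm, more hashed samples entered. The changes of Cd24a, S100a8 and Slpi against matched cells were then 2.32, 1.75 and 1.11.

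MHC class II genes fell as a group. Of 8 tested, 7 were lower in both and 0 higher, with a median of -0.61. H2-Eb1, a beta chain, was at 4711, 5498 and 3096 CPM in members and at 7220, 7698 and 6302 in matched cells, or 1.601-fold lower (log2 -0.68 ± 0.07, edgeR adjusted p = 2.91e-06). Cd74, the invariant chain, was at 18263, 17479 and 11931 against 26201, 22350 and 18617, or 1.39-fold lower (edgeR adjusted p = 1.86e-06), and H2-DMb1, of the peptide-loading chaperone, was at 498, 519 and 373 against 939, 954 and 889. These arms did not overlap, and H2-Eb1 and Cd74 were lower in 9 of 9 hashed samples. Dendritic cell genes summed to 7.29, 77.1 and 7.99 CPM in matched arms and to 0, 0 and 9.33 in member arms. Over the 9 hashed samples they reached 509 in a matched arm and 14.1 in a member arm. The part of such cells in the changes of class II genes was not tested. H2-Aa, H2-Ab1, H2-DMa and Ciita, the transactivator of the class, were the others that fell. Without pool 2 hashtag 6, Ciita lost its call (-0.65, edgeR adjusted p = 0.105) and H2-Ab1 lost it against the whole comparator (-0.18, 0.0890). The class I heavy chain H2-D1 moved the other way, at 3956, 4713 and 3790 against 2605, 3434 and 2591 (log2 0.57 ± 0.06, edgeR adjusted p = 2.95e-06). The class I list had 3 of 13 genes higher in both and 0 lower (median 0.13), the others being H2-K1 and B2m. H2-D1 did not pass against the whole comparator with at least 4 cells per arm (0.23, edgeR adjusted p = 0.505). H2-K1 did not pass against the whole comparator when any of the 3 hashed samples was left out (0.18 to 0.25), nor against matched cells without pool 1 (0.23, edgeR adjusted p = 0.123) or pool 2 hashtag 4 (0.23, 0.219), nor B2m without pool 1 (0.21, 0.153) or pool 2 hashtag 4 (0.24, 0.141).

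Ccr2 and interferon-induced genes were also lower. Ccr2, the chemokine receptor by which monocytes enter tissue, was at 12.0, 32.8 and 37.3 CPM against 110, 166 and 171, or 5.03-fold lower (log2 -2.33 ± 0.18, edgeR adjusted p = 1.70e-08) and lower in 9 of 9 hashed samples, although both arms had passed the limit on Ly6c2 and Plac8. The summed monocyte markers outside the rule, Ccr2 among them, were 51.0, 64.1 and 145 in members against 126, 185 and 195. Not all of these genes fell. Chil3 stood at 45.6 CPM over all members and at 6.14 over all matched cells (12.9% against 3.85% of cells with UMIs). Of 2 genes of this list tested against matched cells, 1 had a positive change. Ifitm1, an interferon-induced membrane protein, was at 17.99, 53.6 and 4.66 against 352, 417 and 64.6 (9.98-fold lower, log2 -4.08 without pool 2 hashtag 4), and Cd72, an inhibitory lectin-like receptor, at 33.0, 25.3 and 49.0 against 159, 246 and 179 (5.20-fold lower). Il1r2, the decoy receptor of interleukin-1, was at 6.00, 0 and 0 against 25.1, 15.4 and 20.3, and with 2 member arms at 0 its fold is not given. Ccnd2 (log2 -2.26), Tmem176b (-1.87), Klrk1 and Rnase6 complete the 10 largest falls with the genes given above. Ccnd2 and Tmem176b were at -2.94 and -2.49 without pool 2 hashtag 6, and Rnase6 did not pass against matched cells without pool 2 hashtag 4 (-1.47, edgeR adjusted p = 0.0784). Of 19 interferon-induced genes tested, 4 were lower in both (among them Gbp2, Ifitm3 and Ifi47) and 0 higher, with a median of -0.28. Ifi47 lost its call against matched cells without pool 2 hashtag 4 (-0.47, edgeR adjusted p = 0.142) and 6 (-0.38, 0.208).

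Cytokine genes moved in both directions, with 2 of 22 higher in both and 3 lower (median 0.07). Cxcl9, an interferon-induced T cell attractant, was at 378, 960 and 242 CPM against 1092, 1289 and 1295 (2.60-fold lower, log2 -1.38 ± 0.21, edgeR adjusted p = 1.68e-04, and -1.99 without pool 2 hashtag 4). Ccl12, a ligand of CCR2, was at 132, 148 and 377 against 815, 596 and 493 (log2 -1.47, -2.25 without pool 2 hashtag 6, and -0.85 with no condition on Ly6c2 and Plac8), and Il1b fell by 0.55 on the log2 scale. Ccl8 was at 999, 104 and 584 against 236, 48.1 and 295 and passed (log2 1.46 ± 0.16). It was higher in only 4 of the 9 hashed samples with at least 4 cells, where its change was 0.40 (edgeR adjusted p = 0.659), and 98.8% of its UMIs in members lay in the top 10% of cells. Ccl6, a chemokine of macrophages, did not pass against the whole comparator without pool 2 hashtag 6 (0.31, edgeR adjusted p = 0.755).

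**Figure D3:**
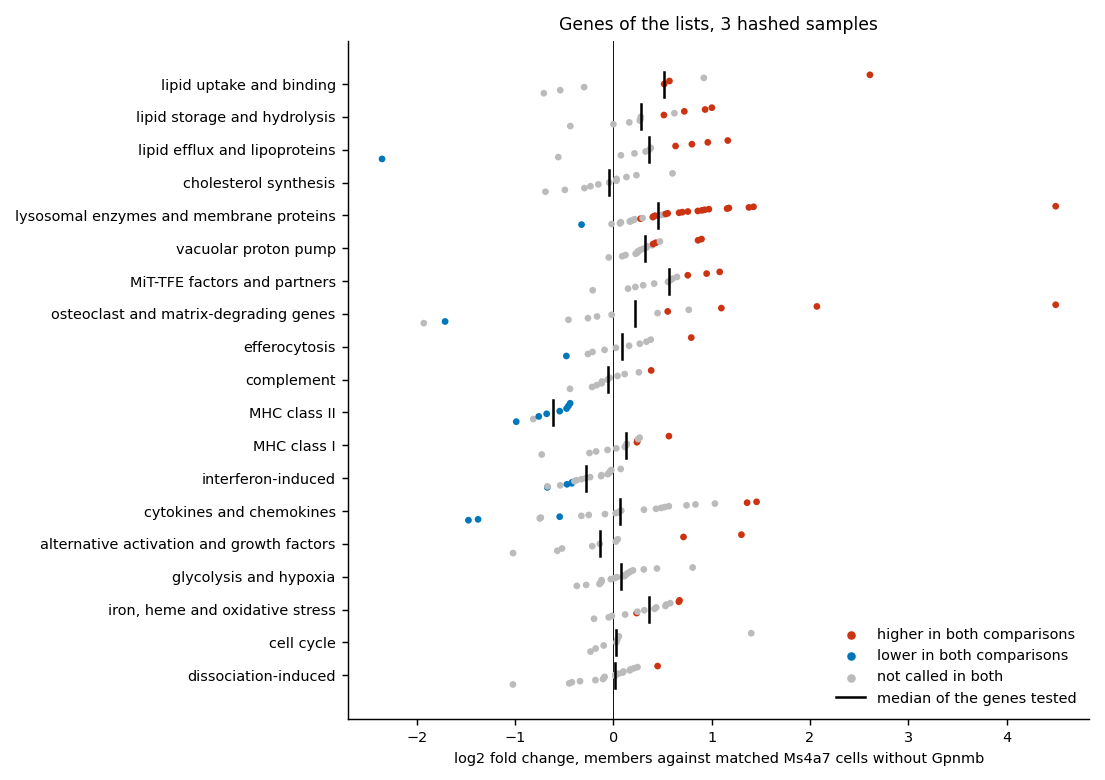
Log2 fold change between members and matched cells (horizontal axis) of each tested gene of 19 lists, by edgeR over 3 hashed samples, in red where higher and blue where lower in both comparisons, with the list's median as a bar. Lysosomal genes lie mostly to the right (18 of 32 higher in both) and MHC class II genes to the left (7 of 8 lower in both).

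Other lists changed in single genes. Iron genes had 3 of 14 higher in both and 0 lower (median 0.37), namely the ferritin chains Ftl1 (9851, 11760 and 9815 CPM against 6263, 7233 and 6684) and Fth1 and the metal transporter Slc11a1. Fth1 lost its call against matched cells without pool 2 hashtag 4 (0.17, edgeR adjusted p = 0.204) or 6 (0.19, 0.145), and Slc11a1 against the whole comparator without pool 2 hashtag 6 (0.43, 0.227). Alternative activation genes had 2 of 9 higher, Arg1, which breaks down arginine (327, 234 and 745 against 288, 100 and 470), and the matrix glycoprotein Thbs1 (195, 232 and 507 against 86.7, 102 and 193). Arg1 did not pass with at least 4 cells per arm (0.34, edgeR adjusted p = 0.512), and Thbs1 not against the whole comparator without pool 2 hashtag 6 (0.50, 0.0833). With no condition on Ly6c2 and Plac8 in either arm, and thus more hashed samples, Thbs1 was at 0.38 against matched cells (1.30 in the main setting). Complement genes had 1 of 11 higher, C3ar1, which lost its call when any of the 3 hashed samples was left out (0.30 to 0.42), and C1qa was at 6511, 4452 and 5217 against 6207, 5934 and 5591 (log2 -0.12, edgeR adjusted p = 0.49). Efferocytosis genes had 1 of 10 higher, the lipid-binding receptor Cd300a (219, 194 and 198 against 98.8, 123 and 131), and 1 lower, the mitochondrial carrier Ucp2, which did not pass without pool 2 hashtag 4 (-0.35, edgeR adjusted p = 0.155). Glycolysis had 0 of 20 past the threshold in both and the cell cycle list 0 of 7, with a median of 0.03.

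Markers of NK, T and dendritic cells were low in the member arms, and those of microglia and border macrophages were near the level of matched cells. Over 7 NK genes the sum was 3.00, 1.49 and 3.50 CPM in members and 49.4, 1.78 and 2.90 in matched cells, with Eomes, Gzma, Klre1, Ncr1 and Prf1 at 0. Over 6 T cell genes it was 0, 1.49 and 0, with 5 of them at 0, and over 7 dendritic cell genes 0, 0 and 9.33, against 7.29, 77.1 and 7.99 in matched cells, with Flt3, Zbtb46, Cd209a and Xcr1 at 0. With at least 4 cells per arm, the highest NK, T and dendritic cell sums were 1097, 222 and 509 CPM in matched arms. In member arms they were 28.2, 1.49 and 14.1. The part of such cells in the falls against matched cells was not tested. The 8 microglia genes outside the rule summed to 747, 1052 and 962 in members and to 900, 1136 and 1033 in matched cells, and to 1824, 2488 and 1984 in the whole comparator. The 6 border macrophage genes summed to 222, 305 and 644 against 295, 276 and 465, above matched cells in pool 2. The 4 inflammatory macrophage genes outside the rule (Arg1, Ptgs2, Il1a and Il1b) summed to 4651, 3437 and 3093 against 6667, 4811 and 3825. Of the microglia and border lists, F13a1 rose and Cx3cr1 fell in both comparisons. The whole comparator thus held more RNA of microglia genes than the members did, and its part in the results against that comparator was not tested. Of 18 dissociation-induced genes 1 was higher in both, Ier3, which did not pass without pool 2 hashtag 6 (0.22 against the whole comparator, edgeR adjusted p = 0.358, and 0.29 against matched cells, 0.0808). Their sum was 10880, 9829 and 9646 in members and 10730, 9418 and 8521 in matched cells.

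Levels differed with the number of Gpnmb UMIs, and genes behaved differently at the threshold of 3. In summed levels Fabp5 and Ctsd showed no step there, while Acp5 and Ccr2 did. Among Ms4a7 cells that passed the exclusions, 676 had 0 UMIs, 104 had 1, 53 had 2, 16 had 3, 27 had 4, 62 had 5 to 9 and 97 had 10 or more. Fabp5 was at 571, 1219 and 2901 CPM in cells with 0, 1 and 2 UMIs, and at 1888, 3855, 2836 and 4654 in the 4 classes of members. Ctsd was at 865, 1455 and 1662 outside and at 1559, 1565, 1637 and 3236 inside, so cells just below the threshold had as much as cells just above it. Cd74 went down, from 21878 at 0 UMIs to 16486 at 2 and 13418 at 10 or more. Ctsk was at 2.46, 6.42 and 15.8 outside and reached 110 at 10 or more. Acp5 was at 351, 470 and 422 outside and at 769, 695, 602 and 581 inside. Ccr2 was at 149, 76.2 and 93.1 outside and at 21.0, 25.1, 47.6 and 17.1 inside. The share of cells with Ccr2 UMIs had no step at 3. It was 42.5%, 27.9% and 15.1% outside and 18.8%, 11.1%, 22.6% and 13.4% inside. Spp1 followed no steady order, at 194, 755 and 396 outside and at 175, 866, 1047 and 1556 inside. These values describe the edge of the rule, without a test. The median depth was 9029 UMIs per cell at 0 Gpnmb UMIs and 12701 at 10 or more, and its part was not tested.

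**Figure D4:**
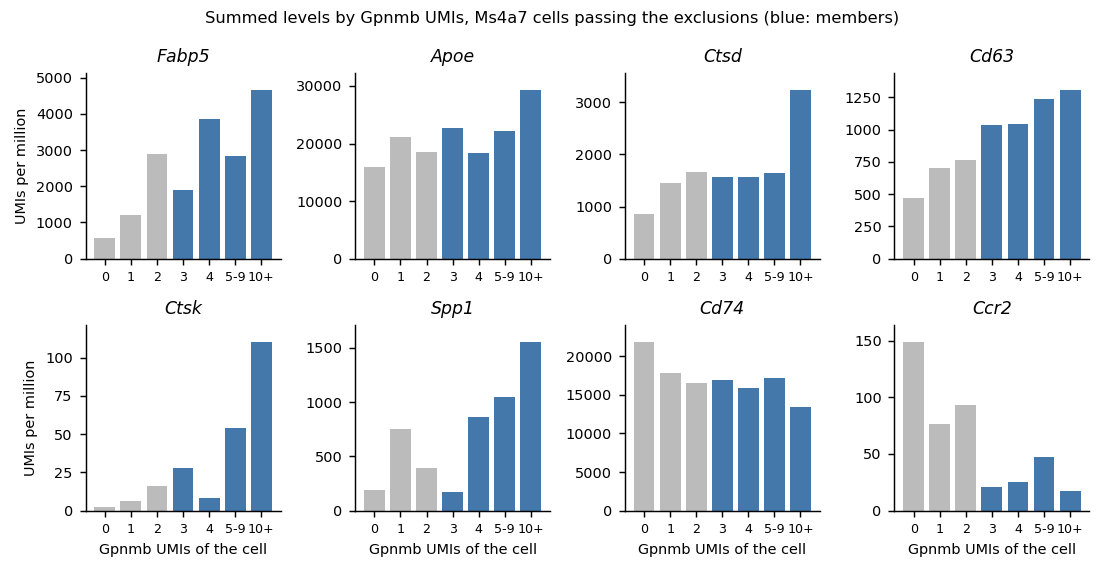
Summed levels (CPM) of 8 genes in Ms4a7 cells that passed the exclusions, by the Gpnmb UMIs of the cell (grey, below the threshold; blue, members). Fabp5, Ctsd and Ctsk are already higher at 1 and 2 UMIs than at 0, and Cd74 and Ccr2 are highest at 0.

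Among the members, some genes were found in nearly every cell and others in few. Gpnmb UMIs per cell had a median of 9, with the middle 80% of cells from 4 to 30 and a maximum of 141. Spp1 was found in 47.0% of members (matched cells 23.5%), and 82.1% of its UMIs lay in the top 10% of cells. For Ctsk the top 10% held 74.0% and for Gdf15 89.1%, shares that are high for any gene found in few cells. Arg1 was found in 53.5% of members, Trem2 in 96.0% and Plin2 in 89.1%. Of genes of dividing cells, Mki67 was in 12.9% against 4.73% and Top2a in 4.95% against 5.47%, and the summed cell cycle list was at 582, 715 and 730 CPM in members and at 655, 768 and 772 in matched cells. After each cell was thinned to 3000 UMIs, which kept 195 members, Arg1 was in 40.0%, Spp1 in 34.4%, Il7r in 24.1% and Ctsk in 14.9%. Spp1 was then found in 55.2% of the 29 members with Ctsk and in 30.7% of those without it, and Ctsk in 27.7% of the 47 with Il7r, the interleukin-7 receptor, and in 10.8% of those without. These cells come mainly from 3 hashed samples, and the shares are given without a test.

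PD-L1 protein was higher on the members than on the whole comparator, and CD52 lower, in each of 9 hashed samples with at least 4 cells per arm. Tags were put on the centred log ratio (natural log) over the 10 antibodies shared by the pools, averaged by hashed sample and arm, and compared within hashed samples. With 3 hashed samples the smallest p an exact two-sided permutation of signs can give is 0.25, so no protein could pass, and the values are given as such. Against the whole comparator, PD-L1, a ligand that inhibits T cells, was 0.344 ± 0.115 higher (SD, n = 3, higher in 3 of 3), CD52 was -0.281 ± 0.074 (0 of 3 higher) and Ly6C, the protein of a gene of the rule, -0.353. Against matched cells PD-L1 was 0.0983 ± 0.087 (2 of 3 higher) and CD52 -0.0956 ± 0.0522 (0 of 3). With at least 4 cells per arm and 9 hashed samples, added after seeing the data, PD-L1 was 0.462 ± 0.141 above the whole comparator (9 of 9, exact permutation adjusted p = 0.017) and 0.226 ± 0.221 above matched cells (8 of 9, exact permutation adjusted p = 0.025). On raw tag counts the same 2 values were 0.341 and 0.532 (log2), with exact permutation adjusted p of 0.086 and 0.107. The RNA of PD-L1, Cd274, was at 89.97, 127 and 103 CPM against 86.7, 112 and 121 and did not pass (log2 0.03, edgeR adjusted p = 0.97), and that of CD52 was lower (-0.29 ± 0.07, edgeR adjusted p = 0.0205).

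Of the other proteins in these 9 hashed samples, Tmem119 was -0.214 ± 0.169 against matched cells (0 of 9 higher, exact permutation adjusted p = 0.017), CD11b 0.201 ± 0.209 (8 of 9, 0.038) and Gr-1 -0.112 ± 0.0786 (1 of 9, 0.032). Tmem119 is the protein of a gene of the rule. The tags of Tmem119, CD52 and CD74 had the lowest levels of the panel in every arm. The part of the other tags in their centred log ratios was not tested. CD11b lost its direction against the whole comparator on raw tag counts (-0.026, exact permutation adjusted p = 0.926), and Gr-1 against matched cells (0.0432, 0.911). On raw tag counts none of the 11 proteins passed against matched cells. With pool 1, 2 or 3 left out none passed in either comparison, where the smallest unadjusted p possible is 0.03125, 0.0625 and 0.015625. Ccr2 protein, read in 2 pools, was -0.158 ± 0.0555 (0 of 6 higher, exact permutation adjusted p = 0.069), while its RNA was lower. Against the whole comparator Ccr2 protein was 0.0801 ± 0.0661 (5 of 6 higher, exact permutation adjusted p = 0.106), although its RNA was lower there too. CD45, CD49d and Ly6C did not pass against matched cells. The proteins MHC-II and CD74, whose RNA fell, had differences of either sign against matched cells, with means of 0.0317 ± 0.624 (5 of 9 higher) and 0.00623 ± 0.208 (4 of 9), both with an exact permutation adjusted p of 0.922. For MHC-II the 9 differences ran from -1.49 to 0.597. The lowest was that of pool 2 hashtag 3, with 6 members and 7 matched cells, without which the mean was 0.222 ± 0.269 (5 of 8 higher). Against the whole comparator MHC-II was 0.372 ± 0.479 (7 of 9 higher, exact permutation adjusted p = 0.100).

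**Figure D5:**
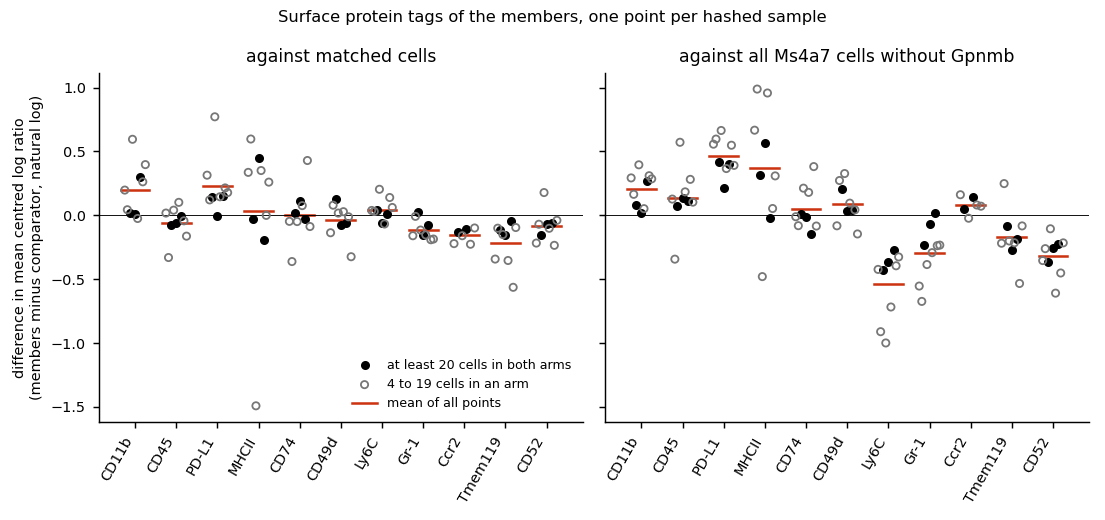
Difference in mean centred log ratio (natural log) of each surface protein tag between members and comparator, with 1 point per hashed sample (filled, at least 20 cells in both arms; open, 4 to 19 cells in an arm) and the mean of all points in red. PD-L1 is above 0 in 9 of 9 hashed samples against the whole comparator and in 8 of 9 against matched cells, while MHC-II points lie on both sides of 0 in both panels.

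The members were last split at the median of MHC-II protein within each hashed sample, to describe variation along a protein that the rule did not use. Only pool 2 hashtags 4 and 6 had at least 20 cells on each side, so pool 1 and pool 3 are not in this comparison. Of 4418 genes tested 0 were higher (0%) and 1 was lower (0.0226%) in the high group, by edgeR's quasi-likelihood test, and 218 had an unadjusted p under 0.05. The gene that passed was Ccl8, at 31.4 CPM in the high group against 177 in the low group of pool 2 hashtag 4, and at 87.9 against 1063 in pool 2 hashtag 6 (log2 -3.32 ± 0.26, edgeR adjusted p = 5.25e-04). Ccl8 had UMIs in only 30 of the 202 members, and 98.8% of these UMIs lay in the top 10% of cells. The side on which a few cells fell can therefore set this call, and with no replicate block 0 genes passed. H2-Eb1 (0.73, edgeR adjusted p = 0.301), H2-Aa (0.62, 0.301) and Cd74 (0.46, 0.301) were on the side of the protein without passing. Fabp5 (0.13) and Ctsd (-0.08) differed little between these groups.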

How the data were processed

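The deposited matrices hold UMI counts per gene and cell and antibody tag counts for 3 pools. Per the submitters' processing notes, mm10 and Seurat 3 were used with bcl2fastq 2.20.0.422 and with Cell Ranger 3.0.1 and 4.0.0. Their roles are not given in the sources used here. Per the file headers, pool 1 lists 31053 genes (version 3.1.0) and pools 2 and 3 list 32285 (4.0.0), of which 30406 in all pools were used. The members and gene lists were chosen with earlier results of these data known.

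UMI counts were summed per hashed sample and arm (20 cells or more). The test was that of edgeR 4.0.16 (TMM, filterByExpr, quasi-likelihood, hashed sample as block, since both arms come from 1 hashed sample) in R 4.3.3, with Benjamini-Hochberg adjustment. Genes of the rule were not tested. The main fits against matched cells and against the whole comparator were checked on simulated counts. Against matched cells 59 of 100 genes changed 2-fold and 92 of 100 changed 4-fold were recovered with 13 false calls. Against the whole comparator they were 62 and 94 with 15. The fit of the split by MHC-II protein was not checked in this way. Levels are CPM, from the deposited counts. Tag counts were put on the centred log ratio, and shares have Clopper-Pearson intervals. Python 3.11.15 with numpy 2.4.6, scipy 1.17.1 and scanpy 1.11.5 served the rest. Doublets were removed by mixed hashtags alone. Scrublet's automatic call marked 0%, 3.82% and 0% of the pools, and a fixed score limit was used as an alternative.

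Named genes are the 5 markers, up to 4 genes of each list with the largest change that passed in both comparisons, and the 10 largest rises and falls among genes that passed in both, with 1 sign in every hashed sample tested and at least 20 CPM in the higher arm. Genes named beyond these were chosen after their values were seen. A few genes counted in the lists are not reported here by name. The ranking of genes by likeness to Gpnmb over classes is not used here, since few classes gave many ties. Alternatives were other normalizations and tests (DESeq2 1.42.0), filters, depths, thresholds and left-out samples.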

Additional observations from a re-analysis of the deposited data

How the results depend on the processing

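Against the whole comparator 663 genes passed. The count was 317 by DESeq2, 98 with no replicate block (both arms then enter as unpaired samples), 1294 with counts summed per pool, 430 at matched depth and 1916 with no condition on Ly6c2 and Plac8 (added after seeing the data, as were all settings with at least 4 cells and the left-out pool 2 samples), and leaving out 1 hashed sample or pool gave 311 (without pool 2 hashtag 6) to 742. Against matched cells 323 passed. The count was 107 by DESeq2, 18 with no replicate block, 600 per pool and 1699 with no condition on Ly6c2 and Plac8, and leave-one-out gave 232 to 333. List genes passing in both were 69, against 36 by DESeq2, 4 with no replicate block, 134 with no condition on Ly6c2 and Plac8 and 52 to 70 with 1 left out. The split of calls against the whole comparator, 42.2% higher, became 32.0% with library size alone and 31.7% with no filter, and against matched cells 56.7% became 67.3% by DESeq2. Between members high and low in MHC-II protein 1 gene passed, against 13 with library size alone, 30 with no filter, 0 with no replicate block and 11 when split by raw tags. Proteins passing were 0 in the main setting. Against the whole comparator they were 5 with at least 4 cells (4 on raw tags, 4 per 1000 tags) and 2 with no condition on Ly6c2 and Plac8 (5 and 5), and against matched cells 4 (0 on raw tags, 3 per 1000 tags) and 3 (2 and 3), and with at least 4 cells and any pool left out 0 in both. The median share of members, 0.121%, was 2.18% with no condition on Ly6c2 and Plac8, 0.526% thinned to 3000 UMIs, 0.218% with at least 2 UMIs of Gpnmb, and 0.0231% to 0.281% with a pool left out. Single values reversed for Ier3 (-0.053) and Slpi (-0.15) with at least 4 cells and for Slpi per pool (-0.44), all against the whole comparator. The cause of these changes was not tested. Fewer samples entered where samples were left out. More entered, from all 3 pools, with no condition on Ly6c2 and Plac8. Matched cells were then also free of that condition, and pool 2 hashtag 4 held 371 of them against 132 in the main setting. Leaving out pool 2 leaves 1 hashed sample and no test, and leaving out pool 3 equals the main result. Of 140 values of named genes (fewer where genes were not tested), those no longer passing were 36 by DESeq2, 104 with no replicate block, 8 without pool 1, 18 without pool 2 hashtag 4, 25 without pool 2 hashtag 6, 17 with at least 4 cells (and 2 more that reversed there), 14 at matched depth, 15 with at least 5 UMIs of Gpnmb and 3 with no condition on Ly6c2 and Plac8. Depth limits genes with few UMIs, and only 3 hashed samples entered the main tests.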
